A study of Mus musculus with 6 samples.

Results

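The 53 genes described here encode ephrins and Eph receptors (19 genes), semaphorins with their plexin and neuropilin receptors (23 genes), netrins with their receptors (7 genes), and slits with their Robo receptors (4 genes). They belong to these families but do not cover them. The rule that lists them uses no measured value, but they were chosen with earlier results of these data known. All 53 were found by symbol among the 56748 genes of the deposited tables, and 52 were among the 16605 genes that passed a filter on low counts. The gene left out, *Epha5*, had 2 counts in the 6 uteri together, and never more than 3 counts in a uterus. RNA of the uterus was compared between 3 libraries of control and 3 of *Gp130* ecKO females, labelled as C57BL/6, at 1600 h on day 4 of pregnancy, shortly before the embryo attaches. *Gp130* (listed as *Il6st*) encodes the signalling receptor shared by the interleukin-6 family of cytokines, and the study asked what its loss from the uterine epithelium does before attachment. The *Gp130* ecKO females carried Ltf iCre/+ with Gp130 flox/flox. The labels give WT for the controls, which the methods of the study describe as Ltf+/+ with Gp130 flox/flox, or as wildtype. The Cre recombinase follows the *Ltf* gene, which is active in uterine epithelium and also in some myeloid cells. The sample labels call the tissue uterus, and the design text of the series calls it endometrium. Either holds several cell types together, so that fewer cells of a type and less RNA per cell cannot be told apart.

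The expected counts summed to between 13960748 (control 3) and 25906443 (control 2) per uterus. *Il6st* ranged from 451.6 to 678 CPM in the controls and from 349.8 to 388 CPM in *Gp130* ecKO, where CPM is the count relative to the scaled library size as edgeR gives it (log2 fold change −0.68, adjusted p = 0.120 in edgeR's quasi-likelihood test). In a multidimensional scaling of the 6 libraries, control 2 lay at 0.03 on the first dimension, between controls 1 and 3 (2.09 and 2.08) and the *Gp130* ecKO uteri (−1.47 to −1.32). Values without control 2 are therefore given for the members whose call depended on it. Control 2 was picked from these same libraries as the control nearest to *Gp130* ecKO, so leaving it out favours a difference. Values without it are given as description only. The labels do not say whether each library is a separate female, so the p-values measure the spread between these libraries.

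These families were first known from nerve growth, where they attract or repel the tip of the axon, and they are used in many tissues for contact and spacing between cells. Ephrins are held on the cell surface and signal to Eph receptor kinases on the neighbouring cell, with signals running in both directions. Semaphorins are secreted or membrane-bound and act through plexins, for which neuropilins serve as co-receptors of most secreted semaphorins. Netrins act through Dcc, Neo1 and the Unc5 receptors, and slits through Robo receptors. In the uterus, members of these families are known from epithelium, stroma and blood vessels.

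No member passed an FDR under 0.05 with more than a 2-fold change in edgeR's quasi-likelihood test (0 of 52), where 26 of all 16605 genes passed (0.157%). With an unadjusted p under 0.05, 6 members were higher in *Gp130* ecKO (11.5% of 52, against 12.1% of all tested genes) and 14 were lower (26.9%, against 12.9%). Every *Gp130* ecKO uterus lay above every control for 5 members (9.62%, against 15.7% of all tested genes) and below every control for 12 (23.1%, against 15.6%). The share of members higher was thus near or under the background, and the share of members lower was above it. These shares describe a set chosen with earlier results of these data known. By fold change alone, 12 members differed by more than 2-fold (23.1%, against 19.4%).

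Other tests of the same counts called more genes. The exact test of edgeR called 7 members (13.5%, against 7.54% of all genes), of which *Epha4*, *Sema3c* and *Sema3e* were higher and *Sema7a*, *Plxnb1*, *Plxnc1* and *Plxnd1* lower in *Gp130* ecKO. DESeq2 called these 7 and also *Efna1* and *Slit3*, both lower (9 members, 17.3%, against 9.29% of all genes). With control 2 left out, the quasi-likelihood test called 4 members, namely *Epha4*, *Sema3e*, *Plxnb1* and *Plxnd1* (7.69%, against 5.23% of all genes). The median log2 fold change of the 52 members was −0.27, beside −0.05 over all tested genes, with 23 members above 0 and 29 below.

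**Figure D1:**
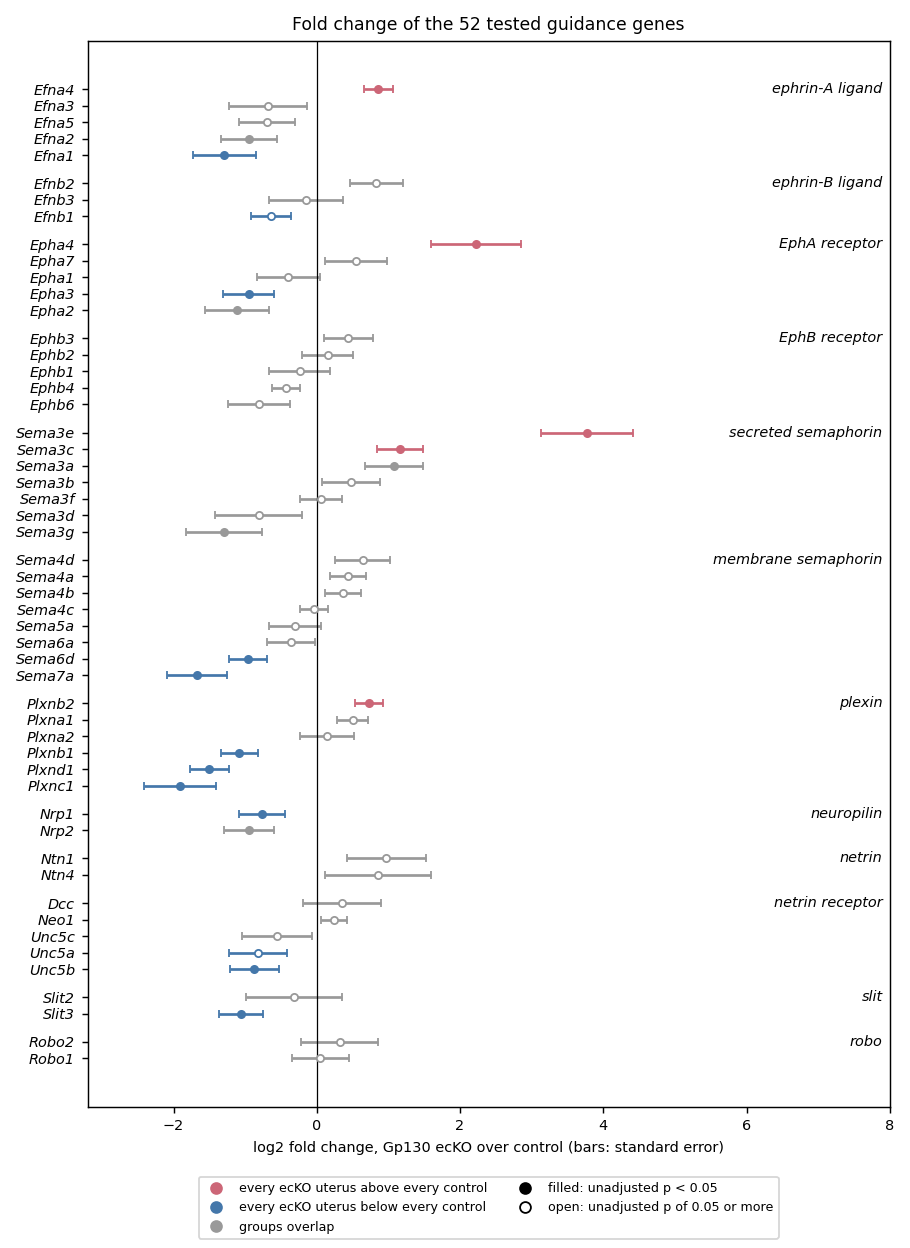
Log2 fold change of *Gp130* ecKO over control for the 52 tested genes, grouped by role, with the standard error as the bar. *Sema3e* lies farthest to the right at 3.77, and the lowest values belong to *Plxnc1* (−1.91), *Sema7a* (−1.67) and *Plxnd1* (−1.50).

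Levels between genes were compared in TPM, the authors' transcript abundance scaled for length and depth. Within the roles, the highest mean TPM in the controls belonged to *Efna1* (52.3) among ephrin-A ligands, *Efnb2* (57.0) among ephrin-B ligands, *Epha1* (17.3) among EphA receptors and *Ephb4* (29.4) among EphB receptors. *Sema3c* (40.4), *Sema4a* (28.9), *Plxnb2* (123) and *Nrp1* (9.15) led the secreted semaphorins, membrane semaphorins, plexins and neuropilins. *Ntn1* (14.3), *Neo1* (12.1), *Slit3* (3.60) and *Robo2* (5.41) led the netrins, netrin receptors, slits and Robo receptors. In *Gp130* ecKO the leader differed only among EphA receptors, where *Epha4* reached a mean TPM of 17.1 and *Epha1* 14.3. That difference between the 2 receptors was smaller than the SD of *Epha4* over the 3 *Gp130* ecKO uteri, 9.87. At the other end of the tested genes, *Unc5c* and *Dcc*, a pair of netrin receptors, had mean TPM of 0.0867 and 0.143 in the controls.

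**Figure D2:**
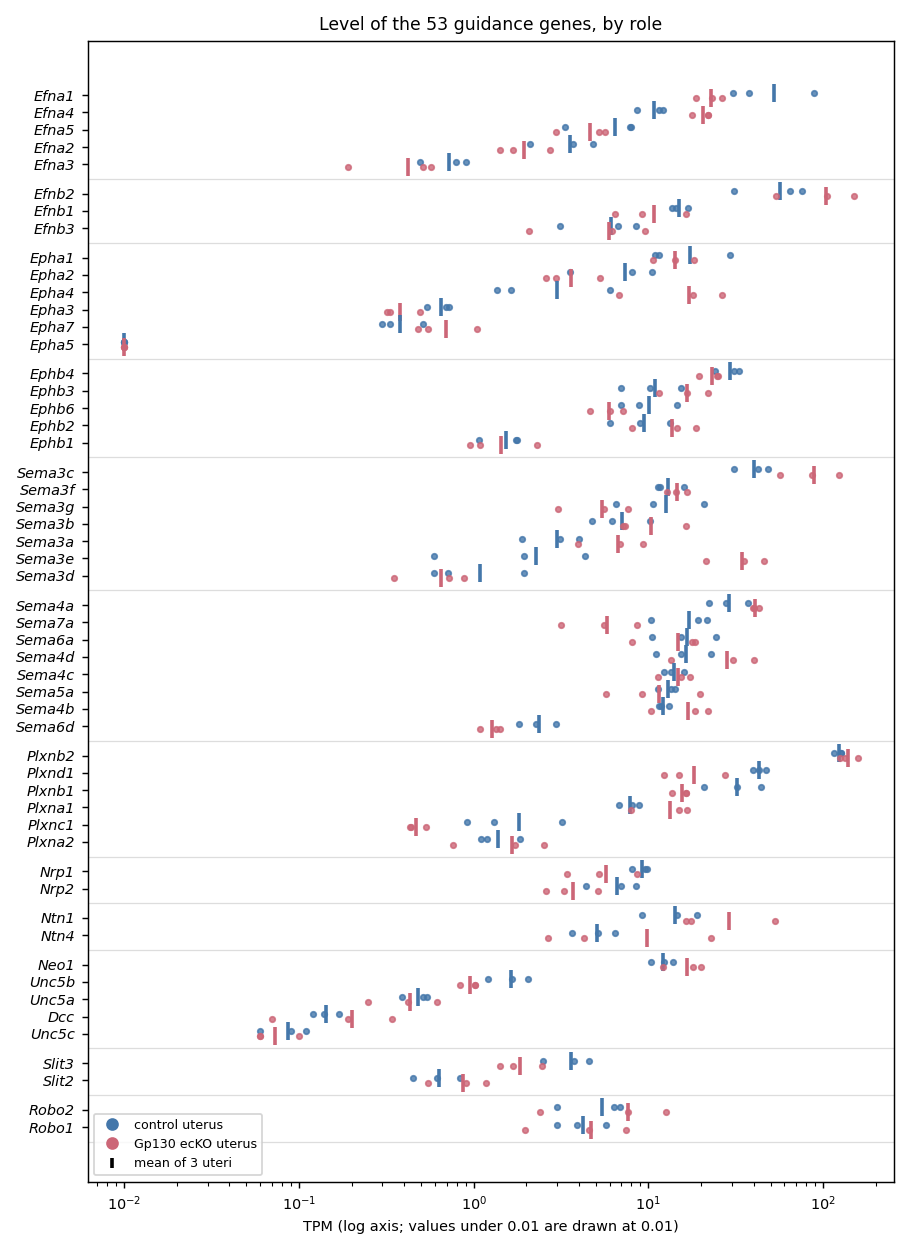
TPM of the 53 genes on a log axis, grouped by role, with a point for each uterus and a tick for the mean of 3. The levels run from about 0 for *Epha5* to a control mean of 123 for *Plxnb2*, and the points of *Sema3e* and *Epha4* separate by group.

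Among the ephrin-A ligands, which are anchored to the membrane by a lipid tail, *Efna1* was lower and *Efna4* higher in *Gp130* ecKO. *Efna4* had 10.7, 14.2 and 12.6 CPM in controls 1, 2 and 3, while *Gp130* ecKO 1, 2 and 3 measured 24.0, 22.3 and 21.9 CPM. Every *Gp130* ecKO uterus lay above every control, with a mean of 22.7 ± 1.13 CPM against 12.5 ± 1.74 (SD, n = 3 each). This was a log2 fold change of 0.86 (standard error 0.20), a 1.82-fold difference with an adjusted p of 0.0868 in edgeR's quasi-likelihood test, and the adjusted p ran from 0.00164 to 0.26 over 16 alternatives. *Efna1*, the preferred partner of the EphA2 receptor, had 101, 33.0 and 38.3 CPM across the controls, against 26.8, 17.5 and 26.2 CPM in the *Gp130* ecKO group. The groups did not overlap, but control 1 stood apart at 101 CPM. Its log2 fold change was −1.29 with a standard error of 0.44 and an adjusted p of 0.139 in edgeR's quasi-likelihood test, or −0.58 with control 1 left out. *Efna2*, a ligand at low level, had 3.48, 5.90 and 7.20 CPM in control uteri, compared with 2.49, 3.73 and 2.36 in *Gp130* ecKO uteri. Control 1 and *Gp130* ecKO 2 overlapped there, with a log2 fold change of −0.94. *Efna3* (−0.68) and *Efna5* (−0.69) had unadjusted p-values of 0.248 and 0.115 in the same edgeR fit.

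The share of each ligand in the summed TPM of the ephrin-A ligands was also compared. *Efna1* made up 82.2, 60.5 and 60.0% of that sum in the controls and 47.4, 38.1 and 50.4% in *Gp130* ecKO. *Efna4* made up 8.0, 23.9 and 18.3% in the controls and 39.1, 44.8 and 38.9% in *Gp130* ecKO. Neither share overlapped between the groups. The genes *Efna1* (chr3:89179037-89188449), *Efna3* (chr3:89221203-89230272) and *Efna4* (chr3:89240695-89245373) are neighbours on the minus strand of chromosome 3 in GRCm39. Of these 3 genes, *Efna1* and *Efna4* thus differed between the groups in opposite directions.

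Of the ephrin-B ligands, which cross the membrane and signal backward into their own cell, none had an unadjusted p under 0.05. *Efnb2*, known from arteries and from epithelium, had 118, 236 and 214 CPM over the 3 controls, while *Gp130* ecKO had 479, 329 and 204 CPM. *Gp130* ecKO 3 lay within the range of the controls, for a log2 fold change of 0.83 with a standard error of 0.37 (adjusted p = 0.210, edgeR's quasi-likelihood test). *Efnb1* had 35.4, 33.0 and 36.8 CPM across the controls, against 21.1, 31.5 and 15.1 CPM in the *Gp130* ecKO group. Its groups did not overlap in CPM, while in TPM they did, with *Gp130* ecKO 2 at 16.5 against 13.7, 14.4 and 16.8 in the controls. *Efnb3* had a log2 fold change of −0.15, with 5.18 to 20.2 CPM over the 6 uteri.

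Among the 5 tested EphA receptors of the set, *Epha4* had the largest difference. It is a receptor kinase that binds both ephrin-A and ephrin-B ligands. Its CPM was 8.29, 25.4 and 6.13 in the controls and 98.6, 57.8 and 29.6 in *Gp130* ecKO. The groups did not overlap, although control 2 and *Gp130* ecKO 3 came close to each other. The log2 fold change was 2.22 (standard error 0.63), or 4.65-fold, with an adjusted p of 0.108 in edgeR's quasi-likelihood test. Without control 2 the log2 fold change was 3.12 and the adjusted p 0.0299, and over the 16 alternatives it ran from 0.00502 to 0.296. *Epha4* made up 3.84, 27.3 and 6.35% of the summed EphA TPM in the controls and 51.7, 49.97 and 32.8% in *Gp130* ecKO.

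*Epha2*, the receptor paired with *Efna1* above, had 32.2, 10.6 and 21.9 CPM in control uteri, compared with 14.5, 7.58 and 8.0 in *Gp130* ecKO uteri. Control 2 lay within the range of *Gp130* ecKO, for a log2 fold change of −1.11, or −1.41 without control 2 (adjusted p = 0.183 and 0.0714 in edgeR's quasi-likelihood test, and 0.0714 to 0.428 over the alternatives). *Epha3* had 2.47, 3.08 and 2.80 CPM over the 3 controls, while *Gp130* ecKO had 1.04, 1.81 and 1.45 CPM. The level of *Epha3* was thus low in both groups, which did not overlap (log2 fold change −0.95). *Epha1*, the leading EphA receptor of the controls in TPM, had 75.9, 28.0 and 24.7 CPM there and 40.9, 29.3 and 27.1 CPM in *Gp130* ecKO. Its log2 fold change of −0.40 turned to 0.32 with control 1 left out. The exons of *Epha1* overlap those of *Zyx* on the opposite strand over 36.9% of their length, with 23833 counts of *Zyx* and 5291 of *Epha1* over the 6 uteri. Whether strand was used in counting is not given in the sources used here. *Epha7* had a log2 fold change of 0.55 with 1.40 to 3.98 CPM.

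None of the 5 EphB receptors had an unadjusted p under 0.05 or groups that did not overlap. *Ephb4*, the receptor of ephrin-B2 known from veins, had 105, 94.7 and 67.2 CPM across the controls, against 71.5, 64.4 and 62.3 CPM in the *Gp130* ecKO group. Control 3 lay among the *Gp130* ecKO uteri, and the log2 fold change was −0.43 (unadjusted p = 0.0648 in the edgeR fit). *Ephb6*, which lacks kinase activity, had a log2 fold change of −0.81, or −0.18 without control 1, and shares 14.7% of its exon length with *Trpv6* on the other strand. *Ephb1*, *Ephb2* and *Ephb3* had log2 fold changes of −0.24, 0.15 and 0.44.

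Among the 7 secreted semaphorins, *Sema3e* and *Sema3c* were higher in *Gp130* ecKO without overlap between the groups. *Sema3a* (higher) and *Sema3g* (lower) had an unadjusted p under 0.05 with groups that overlapped, and no test run on all 6 uteri called them. *Sema3e* had the largest difference of the 53 genes. It encodes a semaphorin that binds plexin D1 directly, without a neuropilin. Its CPM was 9.22, 19.0 and 2.67 in controls 1, 2 and 3, from 228, 493 and 40 counts, and 149, 178 and 100.1 in *Gp130* ecKO 1, 2 and 3, from 3291, 4621 and 2415 counts. All 3 *Gp130* ecKO uteri lay above the controls, with a mean of 142 ± 39.2 CPM against 10.3 ± 8.22 (SD, n = 3 each). *Sema3e* thus had a log2 fold change of 3.77 (standard error 0.64), or 13.7-fold, with an unadjusted p of 0.000497 and an adjusted p of 0.0616 in edgeR's quasi-likelihood test. Leaving out each uterus in turn gave log2 fold changes from 3.33 to 4.57, the highest without control 2. The adjusted p was then 0.0154, and it ran from 5.0e-08 to 0.175 over the 16 alternatives. The two-sided exact permutation test gave p = 0.1 for *Sema3e*, which is the smallest value that 3 uteri against 3 allow.

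*Plxnd1*, the receptor of *Sema3e* and known above all from blood vessels, differed the other way. Its CPM was 87.4, 70.1 and 72.1 in the controls and 18.2, 36.3 and 26.7 in *Gp130* ecKO. All 3 *Gp130* ecKO uteri lay below the controls, and the means were 76.6 ± 9.45 and 27.1 ± 9.09 CPM (SD, n = 3 each). For *Plxnd1* this gave a log2 fold change of −1.50 (standard error 0.27), or 2.83-fold lower, with an unadjusted p of 0.000647 and an adjusted p of 0.0635 in edgeR's quasi-likelihood test. Leaving out each uterus gave −1.77 to −1.28. The adjusted p was 0.0437 without control 2, and it ran from 0.000116 to 0.172 over the 16 alternatives. Per length, *Sema3e* TPM divided by *Plxnd1* TPM was 0.0414, 0.101 and 0.0149 in the controls and 2.89, 1.69 and 1.43 in *Gp130* ecKO. In TPM the receptor thus exceeded the ligand in each control, and the ligand exceeded the receptor in each *Gp130* ecKO uterus. The ligand lies at chr5:14075290-14306719 (plus strand) and the receptor at chr6:115931772-115972286 (minus strand) of GRCm39.

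The 250 bases before the annotated starts of these genes are shown because they are the ligand and receptor with the smallest p-values in the set, and they differ in base composition. They were read from GRCm39 at the GENCODE M39 gene starts, 5′ to 3′ on the strand of the gene, with each CG dinucleotide in capitals. The *Sema3e* window, chr5:14075040-14075289, holds the same bases as the RefSeq promoter table. The *Plxnd1* window is chr6:115972287-115972536 and does not hold the same bases as that table, so its composition and motif search rest on the GENCODE start.
Sema3e: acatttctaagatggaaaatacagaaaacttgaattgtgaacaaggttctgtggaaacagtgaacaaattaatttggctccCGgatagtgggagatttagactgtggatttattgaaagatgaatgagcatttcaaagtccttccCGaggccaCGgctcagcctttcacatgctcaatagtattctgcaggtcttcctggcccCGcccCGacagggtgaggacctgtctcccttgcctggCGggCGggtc
Plxnd1: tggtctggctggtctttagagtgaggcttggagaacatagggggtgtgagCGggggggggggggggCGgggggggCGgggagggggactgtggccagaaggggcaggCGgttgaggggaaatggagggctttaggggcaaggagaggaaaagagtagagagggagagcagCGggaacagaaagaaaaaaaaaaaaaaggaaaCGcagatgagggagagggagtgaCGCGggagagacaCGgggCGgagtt
The *Sema3e* window has 48.0% G and C with 7 CG dinucleotides, and the *Plxnd1* window has 60.8% with 10, in long runs of G and of A. Over 21630 protein-coding genes the median window had 51.2% and 6 CG dinucleotides, and over the 53 members it had 58.4% and 9. Both strands of each window were searched for TTCNNNGAA (the STAT motif), TGANTCA (the AP-1 motif) and the full estrogen and progesterone response elements. Neither window above held any of them. The STAT letters occurred in the windows of *Efna3* and *Epha3* (2 of 53 members, 3.77%, against 7.85% of all windows), and the AP-1 letters in that of *Sema3c* (1 of 53, 1.89%, against 6.48%). The estrogen and progesterone elements occurred in 0 of 53 members, against 0.0786% and 0.0277% of all windows. With elements this rare, 53 windows could hardly hold any, so the 0 says nothing about hormone control of these genes.

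*Sema3c*, the most abundant secreted semaphorin in TPM, had 174, 105 and 137 CPM in control uteri, compared with 425, 192 and 312 in *Gp130* ecKO uteri. *Gp130* ecKO lay above the controls without overlap, with means of 139 ± 34.6 and 309.5 ± 116 CPM (SD, n = 3 each). The log2 fold change was 1.16 (standard error 0.32), or 2.23-fold, with an adjusted p of 0.104 in edgeR's quasi-likelihood test and of 0.0152 to 0.288 over the alternatives. *Sema3a*, the repellent ligand of neuropilin 1, had 15.6, 7.64 and 10.7 CPM over the 3 controls, while *Gp130* ecKO had 14.4, 21.3 and 36.0 CPM. Control 1 lay just above *Gp130* ecKO 1, so the groups overlapped, with a log2 fold change of 1.08. *Sema3g*, known from vessels, had 74.9, 36.6 and 20.9 CPM across the controls, against 9.77, 16.6 and 27.8 CPM in the *Gp130* ecKO group. Control 3 lay below *Gp130* ecKO 3, for a log2 fold change of −1.29, or −0.65 without control 1. *Sema3b*, *Sema3d* and *Sema3f* had log2 fold changes of 0.48, −0.81 and 0.06 and unadjusted p-values from 0.225 to 0.829 in the edgeR fit.

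*Sema3a*, *Sema3c*, *Sema3d* and *Sema3e* lie on the plus strand of chromosome 5 of GRCm39, between positions 12433124 (start of *Sema3d*) and 17935648 (end of *Sema3c*). In order along the chromosome their log2 fold changes were −0.81, 1.08, 3.77 and 1.16. The summed TPM of the 7 secreted semaphorins was 103.0, 66.0 and 69.2 in the controls and 196.5, 137 and 149 in *Gp130* ecKO. *Sema3e* made up 1.88, 6.54 and 0.852% of it in the controls and 18.0, 33.7 and 14.4% in *Gp130* ecKO, while *Sema3g* made up 20.1, 16.1 and 9.39%, and 1.55, 4.08 and 5.15%. Both shares were separate between the groups.

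**Figure D3:**
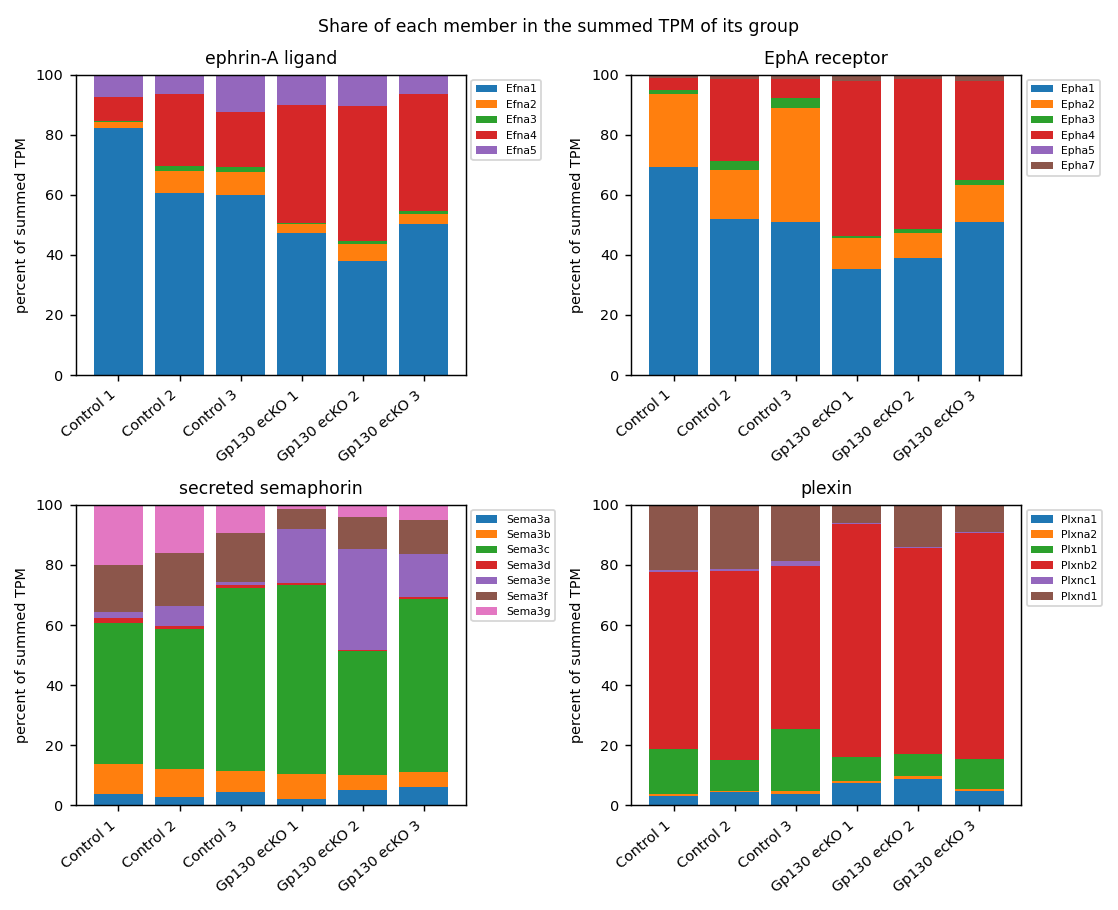
Share of each gene in the summed TPM of the ephrin-A ligands, EphA receptors, secreted semaphorins and plexins, with a stacked bar for each uterus. In *Gp130* ecKO the shares of *Efna4*, *Epha4* and *Sema3e* were larger and that of *Efna1* smaller in every uterus than in any control.

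Among the membrane semaphorins, *Sema7a* and *Sema6d* were lower in *Gp130* ecKO. *Sema7a*, held by a lipid anchor and a ligand of plexin C1 and of integrins, had 56.6, 47.8 and 23.9 CPM in control uteri, compared with 7.37, 18.3 and 14.6 in *Gp130* ecKO uteri. Controls and *Gp130* ecKO did not overlap, with means of 42.8 ± 16.9 and 13.4 ± 5.57 CPM (SD, n = 3 each). The log2 fold change was −1.67 (standard error 0.42), or 3.19-fold lower, with an adjusted p of 0.0941 in edgeR's quasi-likelihood test and of 0.0052 to 0.250 over the alternatives. *Sema6d*, a ligand of plexin A1, had 11.3, 8.52 and 13.1 CPM over the 3 controls, while *Gp130* ecKO had 5.92, 5.69 and 5.35 CPM, where the 3 uteri lay close together below every control (log2 fold change −0.96). *Sema4a*, the most abundant membrane semaphorin in TPM, had 77.7, 56.8 and 39.5 CPM across the controls, against 84.0, 68.8 and 83.7 CPM in the *Gp130* ecKO group. Control 1 lay within the *Gp130* ecKO range, with a log2 fold change of 0.44. *Sema4b*, *Sema4c*, *Sema4d*, *Sema5a* and *Sema6a* had log2 fold changes from −0.36 (*Sema6a*) to 0.64 (*Sema4d*), and none had an unadjusted p under 0.05.

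Of the 6 plexins, *Plxnb2* was higher and *Plxnb1*, *Plxnc1* and *Plxnd1* were lower. *Plxnb2*, a receptor of class 4 semaphorins known from epithelia, had 221, 239 and 191 CPM in control uteri, compared with 429, 360.2 and 289.5 in *Gp130* ecKO uteri. All *Gp130* ecKO uteri lay above the controls in CPM, with means of 359.7 ± 69.9 and 217 ± 24.2 CPM (SD, n = 3 each). On this scale the log2 fold change was 0.73 (standard error 0.20), or 1.66-fold, with an adjusted p of 0.104 in edgeR's quasi-likelihood test and of 0.0169 to 0.299 over the alternatives. In TPM, whose length follows the transcripts that RSEM assigned, *Plxnb2* had 127, 126 and 116 in the controls and 158, 133 and 124 in *Gp130* ecKO, so that the groups overlapped on that scale. *Plxnb1*, a receptor of *Sema4d*, had 217, 136 and 251 CPM over the 3 controls, while *Gp130* ecKO had 97.7, 76.9 and 111 CPM. The groups did not overlap, with means of 201 ± 59.0 and 95.3 ± 17.4 CPM (SD, n = 3 each). The log2 fold change of *Plxnb1* was −1.08 (standard error 0.26), or 2.11-fold lower, with an adjusted p of 0.0897 in edgeR's quasi-likelihood test, of 0.0297 without control 2, and of 0.00936 to 0.255 over the alternatives. The 2 plexin-B receptors thus differed in opposite directions in CPM.

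*Plxnc1*, the receptor of *Sema7a*, had 5.38, 5.78 and 16.7 CPM across the controls, against 2.22, 2.54 and 2.57 CPM in the *Gp130* ecKO group. Every *Gp130* ecKO uterus lay below every control, and control 3 stood above the other controls (means 9.30 ± 6.44 and 2.44 ± 0.196 CPM, SD, n = 3 each). The log2 fold change was −1.91 (standard error 0.50), or 3.76-fold lower, with an adjusted p of 0.0977 in edgeR's quasi-likelihood test and of 0.0051 to 0.275 over the alternatives. Without control 3 it was −1.19. *Plxna1* and *Plxna2*, receptors used with neuropilins, had log2 fold changes of 0.50 and 0.14 and unadjusted p-values of 0.0526 and 0.723 in the edgeR fit.

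Both neuropilins, which are also co-receptors of vascular endothelial growth factor, were lower in *Gp130* ecKO at an unadjusted p under 0.05. *Nrp1* had 28.1, 25.8 and 20.5 CPM in control uteri, compared with 8.68, 19.96 and 14.8 in *Gp130* ecKO uteri. The highest *Gp130* ecKO uterus lay just under the lowest control in CPM, and in TPM the groups overlapped (log2 fold change −0.77). *Nrp2* had 43.6, 34.3 and 19.9 CPM over the 3 controls, while *Gp130* ecKO had 11.8, 22.0 and 16.9 CPM. Control 3 lay below *Gp130* ecKO 2, for a log2 fold change of −0.95.

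**Figure D4:**
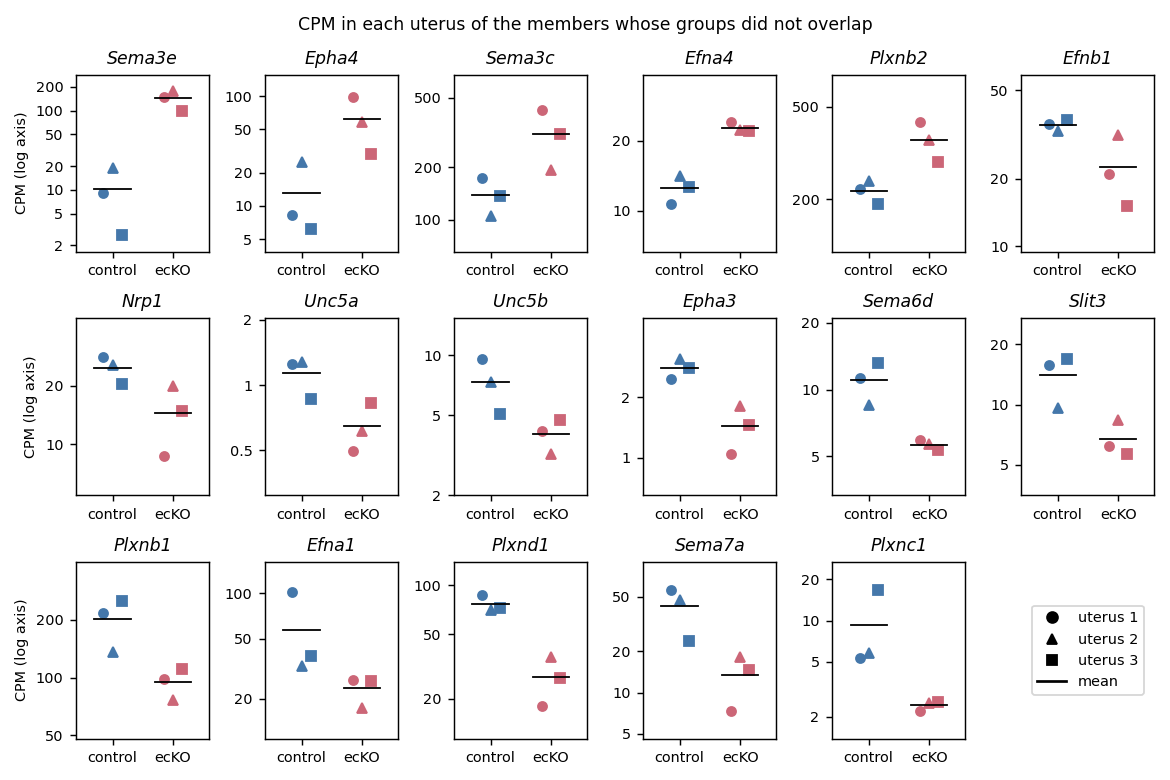
CPM on log axes in each uterus for the 17 genes whose groups did not overlap, with a marker for each uterus and a line for the mean of 3. The gap between the groups is widest for *Sema3e*, and *Nrp1*, *Unc5a* and *Efnb1* show the closest approach between the groups.

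For *Ntn1* and *Ntn4*, 1 *Gp130* ecKO uterus stood far above the other 2. *Ntn1*, the main secreted netrin, had 66.4, 82.0 and 36.8 CPM across the controls, against 64.8, 64.1 and 234.5 CPM in the *Gp130* ecKO group. It was *Gp130* ecKO 3 here, and the log2 fold change of 0.97 was 0.08 without it. *Ntn4*, a netrin of basement membranes, had 18.6, 14.2 and 9.40 CPM in control uteri, compared with 58.3, 10.2 and 7.75 in *Gp130* ecKO uteri. There it was *Gp130* ecKO 1, and the log2 fold change of 0.85 was −0.65 without it. *Gp130* ecKO 1 also had the highest summed CPM of 6 gland markers, 8719, against 116 to 1103 in the other uteri. That sum was carried by *Prss29* (6546 CPM) and *Prss28* (1876 CPM), while the other 4 gland markers were not highest in this uterus, and the part of the glands in the *Ntn4* value was not tested.

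Of the netrin receptors, *Unc5b*, a repulsive receptor known from vessels, had 9.59, 7.37 and 5.07 CPM over the 3 controls, while *Gp130* ecKO had 4.16, 3.19 and 4.73 CPM. The groups did not overlap, although control 3 and *Gp130* ecKO 3 were close (log2 fold change −0.87). *Unc5a* had 1.25, 1.27 and 0.867 CPM across the controls, against 0.497, 0.615 and 0.829 CPM in the *Gp130* ecKO group, which were separate in CPM and overlapped in TPM (log2 fold change −0.82, unadjusted p = 0.0819 in the edgeR fit). *Neo1*, the most abundant netrin receptor, had 55.5, 72.4 and 62.1 CPM in control uteri, compared with 79.9, 81.9 and 63.2 in *Gp130* ecKO uteri. Its groups overlapped, with a log2 fold change of 0.24. *Unc5c* and *Dcc* had log2 fold changes of −0.55 and 0.35, and these rest on 72 and 181 counts over all 6 uteri.

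*Slit3*, the more abundant of the 2 slits in the controls, had 15.7, 9.64 and 16.9 CPM over the 3 controls, while *Gp130* ecKO had 6.24, 8.42 and 5.64 CPM. Again there was no overlap, for a log2 fold change of −1.06 with a standard error of 0.31 (adjusted p = 0.114, edgeR's quasi-likelihood test). *Slit2* had 0.600 to 4.77 CPM across the controls, against 1.31 to 2.53 CPM in the *Gp130* ecKO group, with a log2 fold change of −0.32. Its mean TPM was 0.637 in the controls and 0.873 in *Gp130* ecKO, so that the direction differed between the scales. *Robo2*, the leading Robo receptor in TPM, had 11.1, 17.2 and 18.7 CPM in control uteri, compared with 21.0, 31.7 and 6.01 in *Gp130* ecKO uteri. The *Gp130* ecKO uteri thus lay on both sides of the controls, and its log2 fold change was 0.32. *Robo1* had a log2 fold change of 0.05 and the same pattern, with *Gp130* ecKO 3 lowest at 10.5 CPM and *Gp130* ecKO 2 highest at 31.5 CPM.

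The ligands and receptors that are known to bind each other were set side by side as TPM ratios in 23 pairs, many of which share a gene. The ratio was higher in every *Gp130* ecKO uterus than in any control for 5 pairs, which were *Sema3e* to *Plxnd1* above, *Sema3c* and *Sema3f* to *Nrp2*, *Sema3a* to *Nrp1* and *Ntn1* to *Unc5b*. It was lower in every *Gp130* ecKO uterus for 6 pairs, which were *Efna1* to *Epha1*, *Efna5* to *Epha4* and *Epha7*, *Efnb1* to *Ephb2*, *Efnb2* to *Epha4* and *Sema6d* to *Plxna1*, and 12 pairs overlapped. Single genes alone were separate above the controls in 15.7% and below them in 15.6% of all tested genes. No such share was computed over other gene pairs, so whether these counts are unusual was not tested. The ratio of *Sema3c* to *Nrp2* was 5.68, 4.39 and 9.65 in the controls and 48.0, 10.9 and 26.2 in *Gp130* ecKO. The ratio of *Sema3a* to *Nrp1* was 0.407, 0.199 and 0.385 in the controls and 1.16, 0.805 and 1.79 in *Gp130* ecKO. The ratio of *Sema6d* to *Plxna1* was 0.337, 0.206 and 0.368 in the controls and 0.0891, 0.0849 and 0.135 in *Gp130* ecKO. *Efnb2* to *Epha4* ran from 10.8 to 55.3 in the controls and from 5.70 to 7.92 in *Gp130* ecKO. The groups of these ratios thus lay apart. For *Sema3f* to *Nrp2* they came close, with 1.67 to 2.60 in the controls and 2.78 to 5.06 in *Gp130* ecKO. *Sema7a* and *Plxnc1* were lower together, and their ratio overlapped, with 3.21 to 23.5 in the controls and 7.40 to 16.2 in *Gp130* ecKO. Likewise, *Efna1* over *Epha2* had 4.65 to 8.55 in the controls and 5.04 to 8.92 in *Gp130* ecKO. *Sema4d* over *Plxnb1* had 0.253 to 1.10 in the controls and 0.818 to 2.93 in *Gp130* ecKO, and *Efnb2* over *Ephb4* had 0.936 to 3.12 and 2.77 to 6.06, so that both ratios overlapped. The exons of *Sema4d* overlap those of *Secisbp2* on the opposite strand over 13.7% of their length. *Efnb1* over *Ephb2* had 1.27 to 2.29 in the controls and 0.632 to 0.884 in *Gp130* ecKO, without overlap.

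Markers of several cell types moved with these differences. The summed CPM of 10 endothelium markers was 1394, 927 and 579.9 in the controls and 304, 472 and 452 in *Gp130* ecKO, with a median log2 fold change of −1.27 and 9 of 10 lower at an unadjusted p under 0.05 in the edgeR fit, against 12.9% of all tested genes. The 6 pericyte markers summed to 253, 501 and 505 CPM over the 3 controls, while *Gp130* ecKO had 124, 220.2 and 144 CPM, with a median of −1.05 and 5 of 6 lower. Both sums were lower in every *Gp130* ecKO uterus, and of the members described above as known from vessels, *Plxnd1*, *Sema3g* and *Unc5b* had log2 fold changes of −1.50, −1.29 and −0.87. *Ephb4*, known from veins, had −0.43, and *Efnb2*, known from arteries, had 0.83. The 10 stroma markers summed to 4654 to 6015 CPM across the controls, against 2578 to 3754 CPM in the *Gp130* ecKO group (median −0.79, 6 of 10 lower). The 12 epithelium markers summed to 2678 to 4561 CPM in control uteri, compared with 6242 to 8411 in *Gp130* ecKO uteri (median 0.78, 5 of 12 higher, against 12.1% of all tested genes). Of the 12, 11 had a log2 fold change above 0, from 0.27 for *Cldn7* to 2.19 for *Krt19*, and *Epcam* had −0.19. The study reported more KRT8 and CDH1 protein in the epithelium of *Gp130* ecKO, and both genes are on this list. More epithelium and more RNA per epithelial cell thus cannot be told apart here. The quasi-likelihood test called 0 genes of these lists. The exact test called 6 endothelium, 2 pericyte and 2 stroma markers lower and 3 epithelium markers higher, and DESeq2 called 8, 3, 2 and 3, against 7.54% and 9.29% of all tested genes in either direction. The part of these cell types in the differences of the guidance genes was not tested.

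The remaining marker lists were compared in the same way. The 8 smooth muscle markers summed to 611 to 2913 CPM over the 3 controls, while *Gp130* ecKO had 508 to 3102 CPM, with a median of −0.28 and none with an unadjusted p under 0.05. Of 7 tested macrophage markers 1 was lower (median −0.76), near the 12.9% of all tested genes, of 5 tested mesothelium markers 2 were lower (−0.95), and of 7 tested lymphocyte markers and 6 gland markers none differed at that p (−0.38 and 0.26). Of the nerve and Schwann markers, 4 of 8 were tested and 1 was lower (−0.28), and the defining markers *Sox10*, *Cdh19* and *Elavl4* had at most 3 counts in each uterus.

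**Figure D5:**
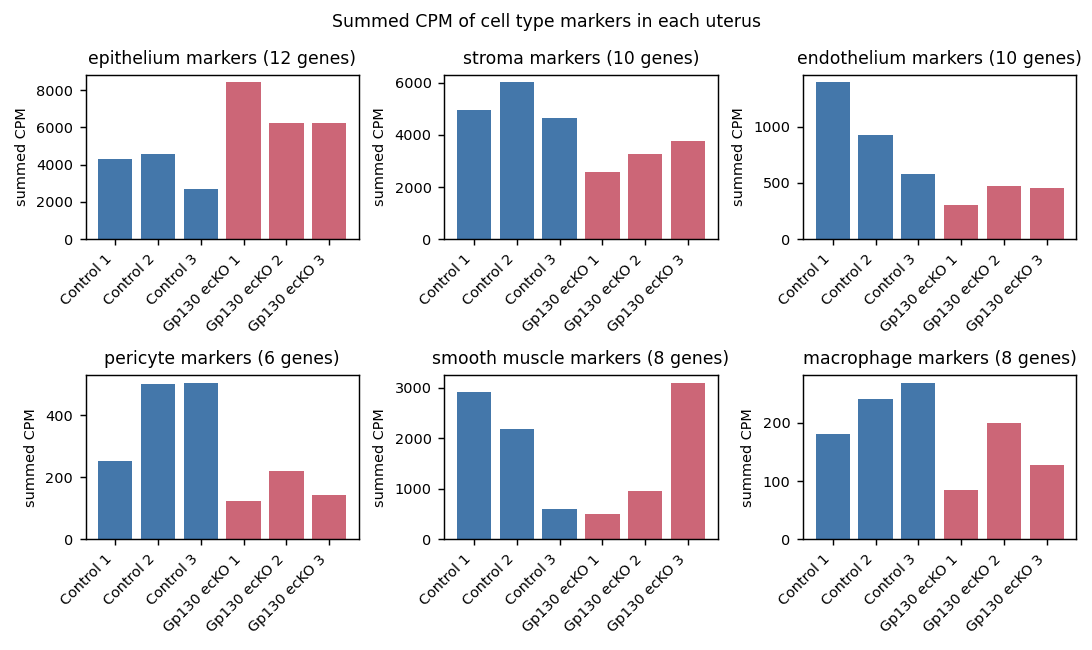
Summed CPM of epithelium, stroma, endothelium, pericyte, smooth muscle and macrophage markers, with a bar for each uterus. The endothelium bars are higher in each control (579.9 to 1394) than in any *Gp130* ecKO uterus (304 to 472), and the epithelium bars are lower (2678 to 4561 against 6242 to 8411).

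A further 26 genes of these families, or of proteins close to them, were listed, and 20 of them passed the filter. Of these 20, 2 were higher at an unadjusted p under 0.05, near the 12.1% of all tested genes. Another 7 were lower, above the 12.9% of all tested genes, and the median log2 fold change was −0.70. Of the 20, 0 were called in edgeR's quasi-likelihood test, 3 (*Epha6*, *Robo4* and *Sema5b*) in its exact test and 6 in DESeq2, against 0.157%, 7.54% and 9.29% of all tested genes. The 5 with the smallest p were *Epha6* (log2 fold change 3.52), *Sema5b* (−2.24), *Rgmb* (0.80), *Robo4* (−1.32) and *Sema6c* (−1.36). *Epha6* had 0, 0.270 and 0.200 CPM across the controls, against 1.13, 2.42 and 1.87 CPM in the *Gp130* ecKO group, so its level stayed low in both groups (adjusted p = 0.0678 in the edgeR fit). It passed the filter on low counts only through the *Gp130* ecKO group. *Sema5b*, with 0.771 to 1.27 CPM in the controls and 0.0904 to 0.308 in *Gp130* ecKO, passed it only through the controls. So did *Ntng1*, also among the 7 lower, with 0.810 to 1.80 CPM in the controls and 0.0904 to 0.615 in *Gp130* ecKO. The p-values, fold changes and calls of these genes, and their part in the counts above, are therefore given as description only. *Robo4*, a Robo receptor of endothelium, had 46.0, 29.4 and 21.3 CPM in control uteri, compared with 8.64, 15.8 and 14.4 in *Gp130* ecKO uteri, without overlap between the groups.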

How the data were processed

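RNA of 6 uteri was sequenced by the authors from strand-specific poly(A) libraries. Per the labels and the methods of the study, reads were trimmed (fastp 0.23.2), cleared of ribosomal RNA (SortMeRNA), mapped to GRCm39 (STAR 2.7.10a) and quantified per gene (RSEM 1.3.3). Annotation and strand setting are not given in the sources used here. The deposited expected counts were not normalized and split reads shared between genes by a model. The deposited TPM is per length and depth, and its length follows the transcripts RSEM assigned, so CPM and TPM can differ. The deposited FPKM was not used.

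Rounded expected counts entered edgeR 4.0.16 under R 4.3.3 (filterByExpr, TMM, glmQLFit without the legacy setting, glmQLFTest), with Benjamini-Hochberg adjustment over 16605 genes. Calls needed an FDR under 0.05 and more than a 2-fold change. CPM refers to TMM-scaled libraries. Standard errors are the log2 fold change over the square root of F. Exact permutation tests were two-sided, on log2(CPM + 0.5). Alternatives were the exact and likelihood ratio tests, the legacy setting, DESeq2 1.42.0, other scalings and filters, unrounded counts, a replicate block and each uterus left out. Symbols and gene starts came from GENCODE M39 (56017 of 56748 identifiers). No 2 libraries were near-identical, and the fit was tested on simulated data.

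CPM per uterus is given for members with an unadjusted p under 0.05, with groups that did not overlap, or leading their role in TPM, and full statistics for the 4 higher and 4 lower with the smallest p. *Ntn4* was added after its values were seen, as were the values per uterus of *Epha6* and *Robo4*. The members and lists were chosen with earlier results of these data known.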

Additional observations from a re-analysis of the deposited data

How the results depend on the processing

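Over all tested genes, 26 were called, and 1252 with the exact test, 1317 with the likelihood ratio test, 7 with the legacy setting, 1542 with DESeq2, 105 with no filter on low counts and 6 with the replicate block, and 1 to 897 when each uterus was left out, the highest without control 2. Of the members 0 were called, and 7 with the exact test, 7 with the likelihood ratio test, 9 with DESeq2, 1 (*Sema3e*) with no filter, and 0 to 4 when each uterus was left out, with 4 without control 2. The number with an unadjusted p under 0.05 was 20, and 14 to 23 over the alternatives. Correlations of deviations from the group means were 0.102, 0.061 and −0.19 for uteri of equal replicate number, and −0.297 to 0.215 for unequal numbers. So few values cannot settle whether the numbers pair the uteri. The fit with the replicate block left 15 members with an unadjusted p under 0.05 and called 0. Of 829 fold changes under 16 alternatives, 772 kept their direction and side of the FDR, 33 newly passed it and 24 reversed, in 15 members, none of them among the 20. *Robo1* (0.05) was −0.03 with upper-quartile scaling and −0.03 with the replicate block. Leaving out each uterus gave ranges across 0 for *Efnb3* (−0.59 to 0.26), *Epha1* (−0.68 to 0.32), *Ephb1* (−0.63 to 0.01), *Ephb2* (−0.12 to 0.49), *Sema3d* (−1.09 to 0.08), *Sema3f* (−0.17 to 0.36), *Sema4c* (−0.16 to 0.09), *Sema5a* (−0.83 to 0.02), *Sema6a* (−0.56 to 0.01), *Plxna2* (−0.18 to 0.47), *Ntn4* (−0.65 to 1.3), *Dcc* (−0.20 to 0.76), *Slit2* (−0.74 to 0.69), *Robo1* (−0.33 to 0.41) and *Robo2* (−0.21 to 0.78). The cause of these shifts was not tested. *Epha5*, with 2 counts in all, was not tested, and 3 uteri against 3 allow no exact permutation p under 0.1.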

Other observations

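Genes that act inside the cell after guidance receptors were measured as well. All 40 on the list were tested. Of the 40, 9 were higher and 7 lower in *Gp130* ecKO at an unadjusted p under 0.05, against 12.1% and 12.9% of all tested genes. The groups did not overlap for the same numbers of genes, 9 above and 7 below, against 15.7% and 15.6% of all tested genes. These shares of the list were above the background, for a list chosen with earlier results of these data known. The median log2 fold change was −0.03. Of the 40, 0 were called in edgeR's quasi-likelihood test, 7 in its exact test and 8 in DESeq2, against 0.157%, 7.54% and 9.29% of all tested genes. *Dpysl2*, which carries semaphorin signals to the cytoskeleton, had 49.7, 45 and 52.9 CPM over the 3 controls, while *Gp130* ecKO had 16.5, 23.0 and 21.8 CPM, with a log2 fold change of −1.27 and an adjusted p of 0.0548 in that edgeR test. *Srgap3*, a regulator of Rac that binds Robo receptors, had 12.7, 45.2 and 22.5 CPM across the controls, against 153, 129.8 and 68.4 CPM in the *Gp130* ecKO group, with a log2 fold change of 2.13. Every *Gp130* ecKO uterus lay below every control for *Dpysl2* and above every control for *Srgap3*. The exchange factor *Vav3*, which binds active Eph receptors, had a log2 fold change of 1.5, and *Arap3* and *Arhgef15*, known from vessels, had −1.35 and −1.58. The lower endothelium markers given above stand beside the values of *Arap3* and *Arhgef15*, and their part in them was not tested.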
